A study of Mus musculus with 24 samples.

Results

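The complement pathway was followed gene by gene in the maternal-fetal interface (MFI) of the mouse, in 31 genes given by name among the 55401 genes of the deposited count table. They are 15 initiators, which recognise a surface or cut the first components, 8 effectors, which are the central component C3, the terminal components and the receptors for their small fragments, and 8 regulators, which hold the cascade in check on host cells. RNA of whole dissected MFI, which holds placenta and decidua, was sequenced from wild-type C57BL/6 mice (WT) and from mice homozygous for a CRISPR/Cas9 deletion of *C1qtnf6* (C1qtnf6-KO, strain C57BL/6JCya), a single line from a commercial supplier. Tissue was taken on gestational days gd10.5 and gd14.5, then gd16.5 and finally gd19.5, and each of the 8 groups has 3 libraries, 24 in all. The labels name no litter, dam, fetal sex or sequencing run, so p-values measure the spread between these libraries, which may be technical in part.

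Complement is a set of plasma and cell surface proteins in which one protease cuts and activates the next. The classical pathway starts with C1q, the lectin pathway with mannose-binding lectin and its proteases, and the alternative pathway runs through factors B, D and properdin. All meet at C3 and end in the membrane attack complex. The liver makes most circulating components, the visceral endoderm of the yolk sac makes many liver proteins before birth, macrophages make C1q, and trophoblast carries surface regulators that shield it from maternal complement. *C1qtnf6* encodes CTRP6, a secreted protein with a C1q-like domain that has been linked to restraint of the alternative pathway.

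Total counts per library ran from 20975717 to 37383108. Levels are given as CPM, the count scaled to the library size after TMM normalisation, and compared between genes only as RPKM, which divides CPM by the exon length in kilobases. A count of 3, taken as the floor of detection, was worth 0.0773 to 0.149 CPM, and intervals around counts cover counting error only. *C1qtnf6* itself had 150, 157 and 168 CPM in the WT libraries of gd10.5 and 64.7, 68.3 and 68.3 CPM in those of gd19.5, against 0.0341 to 2.05 CPM in the 12 KO libraries. The trophoblast genes *Tpbpa* and *Prl3b1* had at least 645 and 1239 CPM in every library, and the decidual gene *Prl8a2* at least 1472 CPM. The 7 markers of yolk sac endoderm and liver summed to 1283 to 23139 CPM in 7 libraries, which were WT gd10.5 replicate 1, all 3 KO gd10.5 libraries, WT gd16.5 replicate 1 and KO gd16.5 replicates 1 and 2, and to 34.4 to 480 CPM in the other 17. Y-linked transcripts were above 30 CPM in 9 libraries, among them the same 3 libraries of gd16.5. KO gd10.5 replicate 2 stood apart from its group, with trophoblast markers at 17970 CPM against 3759 to 6779 CPM in the other 5 libraries of gd10.5. In bulk RNA, fewer cells of a type and less RNA per cell cannot be told apart.

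The 31 genes differed widely in level. Of these, 22 had more than 3 counts in all 24 libraries, 7 in some libraries, and *C1rb* and *Cfd* in none. *Serping1*, the C1 inhibitor that blocks C1r, C1s and the lectin pathway proteases, was the most abundant per length, at a mean of 138 RPKM over the 24 libraries. Next came *Cd55* at 41.2 RPKM, the anchored protein that breaks up C3 convertases, and *Masp1* at 29.6 RPKM, a lectin pathway protease. *Cd59a*, which blocks the last step of pore assembly, had 22.4 RPKM. *Clu*, *C1qb*, *Cr1l*, *C1s1* and *C1qa* followed between 9.03 and 6.93 RPKM, and their ranges overlapped. *C3* had 2.11 RPKM, below *Serping1*, *Cd55* and *Cd59a*. The terminal components *C9*, *C6* and *C7* had 0.174, 0.0795 and 0.0699 RPKM. At the low end, the proteases *Masp2* (0 to 7 counts), *C1s2* (0 to 6) and *C1rb* (0 to 2) were near the floor, and *Cfd*, the protease that cuts factor B, had 0 counts in every library, which allows up to 0.149 CPM at the highest floor.

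**Figure D1:**
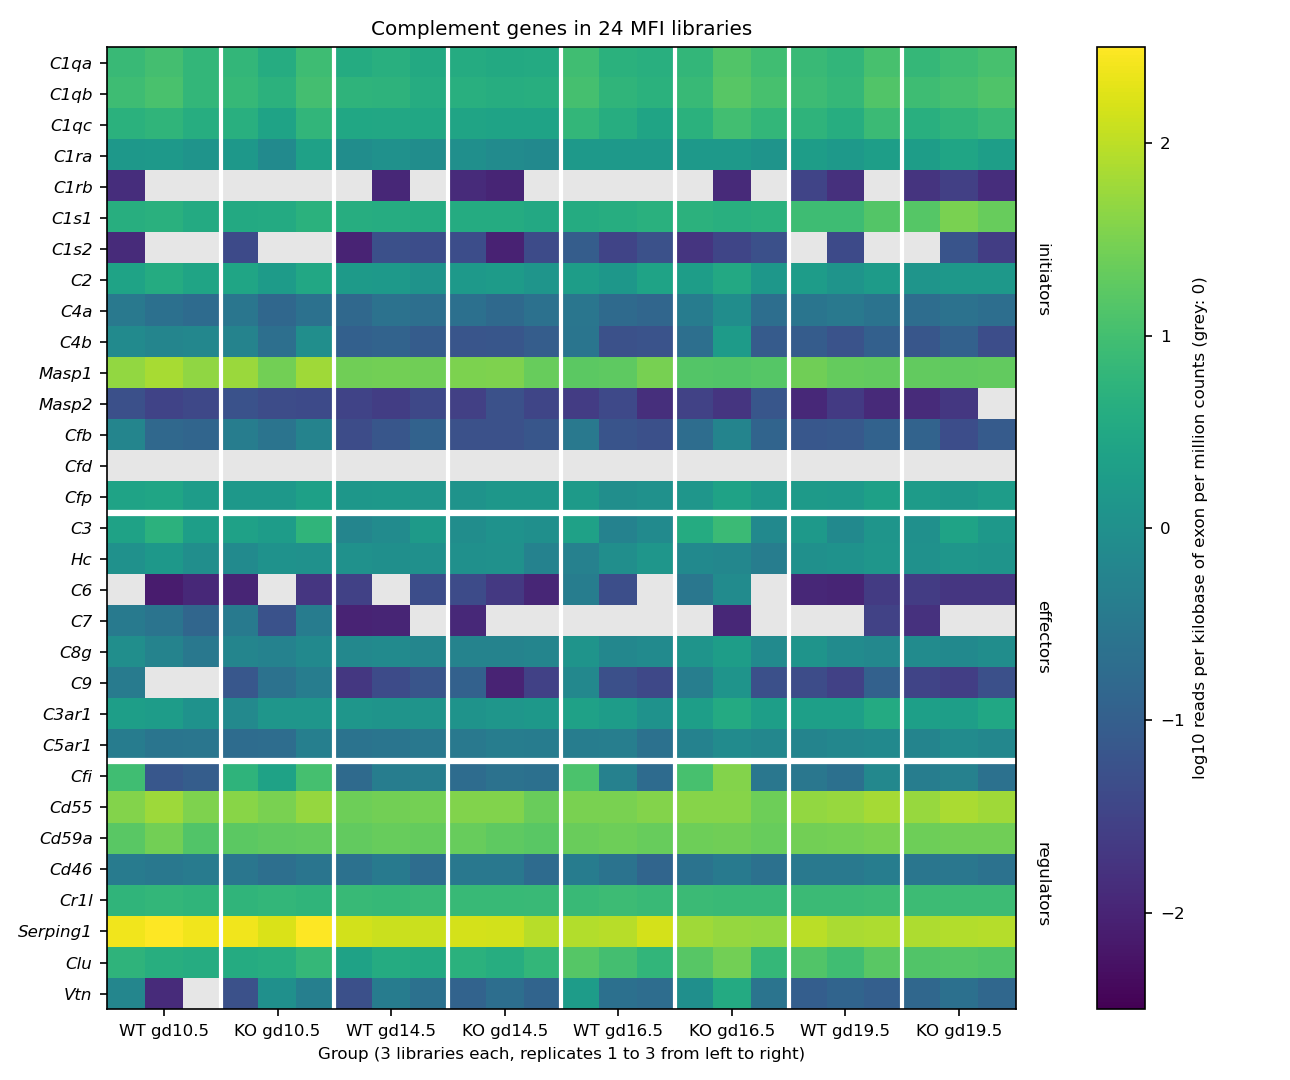
Heatmap of the 31 complement genes (rows, by role) in 24 libraries (columns, 3 per group). Colour gives log10 RPKM and grey marks a count of 0. *Serping1*, *Cd55*, *Masp1* and *Cd59a* are bright in all libraries, *Cfd* is 0 throughout, and *Cfi* is bright in 7 libraries of gd10.5 and gd16.5.

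Some of these levels carry a limit from counting. Exons of *Cfb* were shared over 79.5% of their length with another annotated gene, those of *Masp2* over 54.9% and those of *C2* over 46.9%, and reads in shared exons are left out. The longest transcript of *C1rb* was 97.9% identical to one of *C1ra*, that of *C1s2* 96% to *C1s1*, and that of *C4b* 96% to *C4a*, so reads may be split or lost within those pairs. *C1s1* shared 18.4% of its exon length with *Gm16567*, and the counting ignores strand.

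Among the initiators, the 3 chains of C1q moved together. *C1qa*, *C1qb* and *C1qc* lie side by side on chromosome 4 of GRCm38, between 136880129 and 136898803 on the minus strand, and encode the chains of the molecule that binds antibody or dying cells. Per length, *C1qb* was 1.02 to 1.55 times *C1qa* in the 24 libraries and *C1qc* 0.573 to 0.867 times *C1qa*. *C1qa* had 7.99, 10.6 and 6.73 CPM in WT at gd10.5 and 3.84, 4.59 and 3.66 CPM at gd14.5. Every gd14.5 library lay below every gd10.5 library, and the fall passed the test (log2 fold change -1.06 ± 0.28 (SE), edgeR adjusted p = 0.0065), although the fold limit was missed without WT gd10.5 replicate 2 (-0.87) or WT gd14.5 replicate 3 (-0.99). In KO, *C1qa* had 6.61, 4.08 and 9.14 CPM at gd10.5 and 3.93, 3.50 and 3.68 CPM at gd14.5 (-0.84, edgeR adjusted p = 0.0553).

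From gd14.5 to gd16.5, all 3 C1q genes rose in KO. The KO libraries of gd16.5 had 6.72, 14.7 and 9.67 CPM of *C1qa*, 8.22, 17.4 and 12.2 CPM of *C1qb* and 9.41, 18.8 and 12.5 CPM of *C1qc*, all above the gd14.5 libraries. Their edgeR log2 fold changes came to 1.49, 1.43 and 1.44 (adjusted p = 0.0115, 0.00833 and 0.013). Without KO gd14.5 replicate 2, *C1qa* and *C1qc* lost their calls (adjusted p = 0.0544 and 0.0563), as did *C1qc* without KO gd16.5 replicate 2 (0.0563), while *C1qb* held. In WT the same step gave 0.69, 0.52 and 0.52 (edgeR adjusted p between 0.106 and 0.271). Neither genotype was tested against the other for this step alone. Markers of macrophages, 10 genes of which *Csf1r* was among the most abundant (329 to 999 CPM), summed to 480 to 686 CPM at gd10.5, 776 to 1012 CPM at gd14.5 and 879 to 1284 CPM later. That sum was higher in every library of gd14.5 than in every one of gd10.5, while of the C1q genes *C1qa* in WT was the 1 called lower. The sum gives most weight to abundant genes such as *Csf1r* and is no direct measure of macrophage number. Trophoblast markers rose over the same step, from 3759 to 17970 CPM at gd10.5 to 33135 to 41705 CPM at gd14.5. *Adgre1*, a defining macrophage gene, had 2.39 to 9.14 CPM. The part of cell content in the C1q values was not tested.

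**Figure D2:**
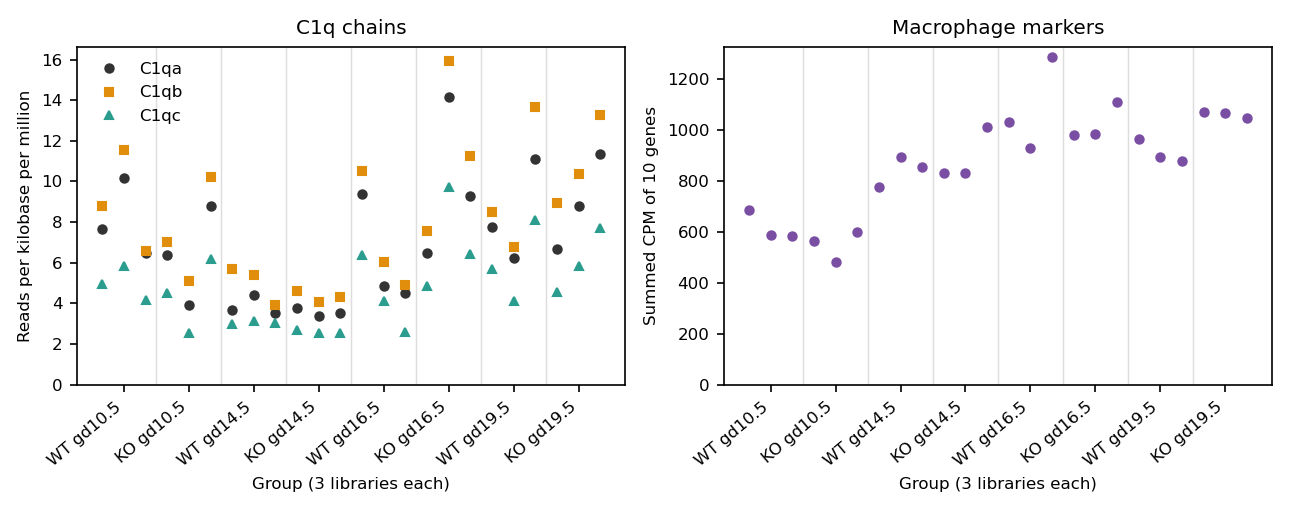
Left, RPKM of the 3 C1q chains in each library, by group. Right, summed CPM of 10 macrophage marker genes in the same libraries. The chains keep their order in every library and are low at gd14.5, where the marker sum is 776 to 1012 CPM.

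*C1s1*, on chromosome 6 from 124530345 to 124542359, encodes the C1s protease that cuts C4 and C2. It was flat until gd16.5 and then rose. Libraries of the first 3 stages held between 10.3 and 15.9 CPM in both genotypes. At gd19.5, WT had 27.6, 27.8 and 44.7 CPM and KO had 47.0, 96.3 and 67.8 CPM. Every library of gd19.5 was above every earlier one, and the 3 KO libraries were above the 3 WT libraries. Against gd16.5 the log2 fold change was 1.34 ± 0.18 in WT (edgeR adjusted p = 0.00134) and 2.21 ± 0.23 in KO (0.00875). The KO call was lost without KO gd16.5 replicate 2 (adjusted p = 0.0656) or KO gd19.5 replicate 3 (0.0746), while the log2 fold change stayed at 2.16 and 2.24. Its partner *C1ra*, the protease that activates C1s, had 4.71 to 5.97 CPM in WT and 5.68 to 8.08 CPM in KO at gd19.5, a log2 fold change over gd16.5 of 0.24 in WT and 0.60 in KO, with adjusted p-values of 0.327 and 0.331. Markers of fibroblasts, which are a known source of C1s, summed to 4030 to 5047 CPM at gd19.5 and 2565 to 3884 CPM at gd16.5. Their sum had also risen from 1504 to 2077 CPM at gd10.5 to 2494 to 3169 CPM at gd14.5, where *C1s1* was flat. The part of fibroblasts in the *C1s1* rise was not tested.

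*Masp1* (chromosome 16, 23449417 to 23520815) was highest at gd10.5. WT had 485, 682 and 455 CPM there and 254, 269 and 258 CPM at gd14.5, with no overlap (log2 fold change -1.05 ± 0.20, edgeR adjusted p = 5.69e-04). Without WT gd10.5 replicate 2 the value was -0.86, inside the fold limit. KO had 539, 264 and 590 CPM at gd10.5 and 326, 339 and 217 CPM at gd14.5, where the low library of gd10.5 was replicate 2 and the groups overlapped (-0.67, adjusted p = 0.0482). From gd14.5 to gd16.5 *Masp1* fell in KO, to 141, 137 and 147 CPM (-1.05 ± 0.25, edgeR adjusted p = 0.0171), a call that was lost without KO replicate 1 or 2 of either stage (adjusted p between 0.0605 and 0.0732).

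*C4b* and *Cfb* fell in both genotypes from gd10.5 to gd14.5. On the gd14.5 libraries alone *Cfb* did not pass the expression filter. It entered the stage fits through stages where it is higher, so its calls are no independent test. *C4b* encodes C4, a component of the classical and lectin C3 convertase. It had 4.54, 3.38 and 3.68 CPM in WT at gd10.5 and 0.605, 0.691 and 0.505 CPM at gd14.5 (log2 fold change -2.66 ± 0.44, edgeR adjusted p = 2.01e-04). In KO the values were 3.10, 1.22 and 5.26, then 0.378, 0.387 and 0.536 CPM (-2.89 ± 0.96, adjusted p = 0.0291). Neither genotype overlapped between the stages. The KO call was lost without KO gd10.5 replicate 1 or 3 or any of the 3 KO gd14.5 libraries (adjusted p between 0.0583 and 0.0997). *Cfb*, factor B of the alternative pathway, had 49, 16 and 9 counts in WT at gd10.5 and 5, 7 and 8 at gd14.5 (-1.97 ± 0.72, edgeR adjusted p = 0.0326), and 32, 20 and 45 against 5, 6 and 5 counts in KO (-2.79 ± 0.57, adjusted p = 0.00263). Without WT gd10.5 replicate 1, whose yolk sac markers were high, the WT value was -0.96 (adjusted p = 0.255), and without WT gd14.5 replicate 1 or 2 the adjusted p was 0.114 or 0.0916.

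The other initiators showed smaller shifts. *C2*, which pairs with C4, had a log2 fold change of -0.99 in WT from gd10.5 to gd14.5 (edgeR adjusted p = 0.00263), just inside the fold limit of 1. *Cfp*, properdin, lay between 1.64 and 4.70 CPM in the 24 libraries and passed no test of stage with the fold limit. *C4a* lay between 0.876 and 2.49 CPM except for 5.58 CPM in KO gd16.5 replicate 2.

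Among the effectors, *C3* had 12.4, 26.4 and 10.49 CPM in WT at gd10.5 and 3.00, 4.20 and 8.80 CPM at gd14.5, without overlap (log2 fold change -1.65 ± 0.54, edgeR adjusted p = 0.0188). The KO values were 11.6, 9.56 and 29.9 CPM and then 4.60, 5.82 and 5.05 CPM (-1.73 ± 0.70, adjusted p = 0.0613). The WT call was lost without WT gd10.5 replicate 2 or WT gd14.5 replicate 1 or 2 (highest adjusted p = 0.101). *C3* is cut by every pathway, and its fragments coat surfaces and call in immune cells.

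*C7*, which anchors the growing pore in the membrane, was a gene of gd10.5. It had 28, 26 and 9 counts in WT and 26, 4 and 31 in KO at gd10.5, and 0 to 2 counts in each of the 18 later libraries. In the WT fit it passed the expression filter only through the gd10.5 group, so its call there is no independent test, and in the KO fit it did not pass the filter. Markers of decidual stroma went the same way in WT, from 5649 to 13021 CPM at gd10.5 to 2347 to 2661 CPM at gd14.5. KO gd10.5 replicate 2, with 4 counts of *C7*, had the lowest sum of gd10.5, 2088 CPM. Order within gd10.5 was not the same throughout. KO replicate 1 had 26 counts of *C7* at 3272 CPM, and WT replicate 3 had 9 counts at 5649 CPM. Their part in the *C7* counts was not tested.

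*Hc*, which encodes C5, was level at 2.65 to 9.23 CPM and passed no stage test. *C8g*, a small subunit of C8, had 1.79, 2.90 and 1.14 CPM in KO at gd16.5 and 0.818, 0.799 and 0.881 CPM at gd14.5, without overlap (log2 fold change 1.24, edgeR adjusted p = 0.0176). The *C8g* call was lost without KO gd14.5 replicate 1 or 2 or KO gd16.5 replicate 2 (highest adjusted p = 0.0809). The receptors for the small fragments, *C3ar1* and *C5ar1*, lay at 3.10 to 15.5 CPM and 0.486 to 2.13 CPM. From gd16.5 to gd19.5 the WT log2 fold change of *C5ar1* was 0.86 (adjusted p = 0.0592).

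A set of liver-type genes followed the yolk sac markers library by library, and its members cut across the roles. *Cfi*, factor I, cuts C3b and C4b to pieces. It had 21.0 CPM in WT gd10.5 replicate 1 and 0.162 and 0.212 CPM in the other WT libraries of that stage, and 12.3, 5.29 and 23.1 CPM in KO. At gd16.5 it had 26.8, 1.11 and 0.389 CPM in WT and 24.5, 83.8 and 0.684 CPM in KO, and at gd14.5 and gd19.5 it ran from 0.369 to 1.54 CPM. So the 7 libraries with *Cfi* above 5 CPM were the 7 with yolk sac markers above 1000 CPM, and *Afp*, the leading marker, ran from 869 to 14889 CPM in them and from 6.67 to 159 CPM elsewhere. *C9*, the pore-forming component, had 28, 0 and 0 counts in WT and 5, 16 and 31 in KO at gd10.5, then 43, 3 and 2 in WT and 22, 100 and 3 in KO at gd16.5. *Vtn*, vitronectin, which keeps pores from entering membranes, had 91, 10 and 8 counts in WT and 40, 237 and 12 in KO at gd16.5. At gd10.5 *Vtn* had 37, 1 and 0 counts in WT and 3, 54 and 27 in KO, so KO replicate 1 was low in *Vtn* despite high markers. *C6*, another pore component, had 35, 4 and 0 counts in WT and 22, 96 and 0 in KO at gd16.5, but 0 to 2 counts in every library of gd10.5, also in the 4 with high markers.

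**Figure D3:**
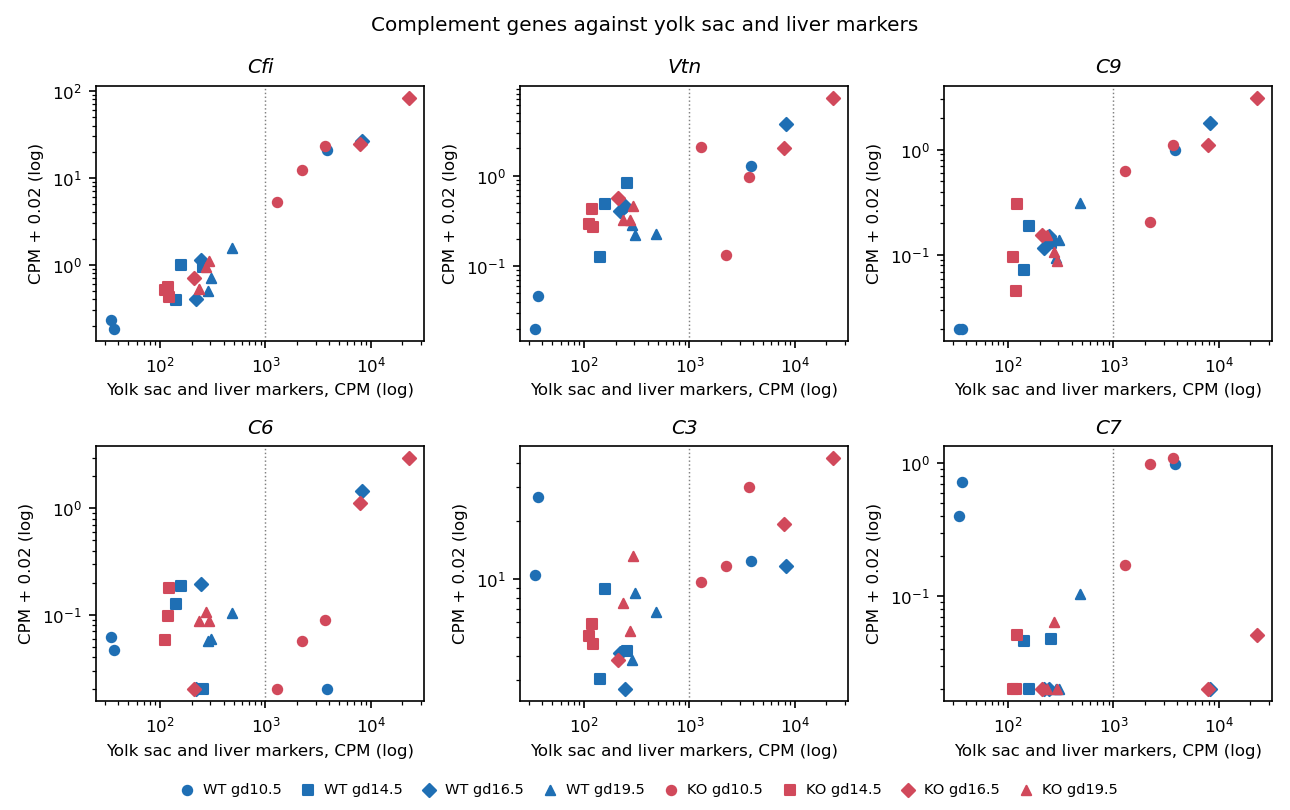
CPM plus 0.02 of 6 complement genes (y, log) against the summed CPM of 7 yolk sac and liver markers (x, log), with 1 point per library, colour by genotype and shape by stage. The dotted line marks 1000 CPM. *Cfi* rises with the markers over all stages, *C6* is above 1 CPM in 3 libraries of gd16.5 and low at gd10.5, and *C7* is high in gd10.5 libraries on both sides of the line.

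The sequence before the RefSeq start is shown for *C6*, *C9* and *Vtn*, since they share this pattern and differ at gd10.5. The 250 bases before the RefSeq transcription start are given, 5′ to 3′ on the plus strand of GRCm38.p6, for *C6* (chr15:4726960-4727209), *C9* (chr15:6445096-6445345) and *Vtn* (chr11:78498870-78499119). Capitals mark, on either strand, GTTAAT, part of the site of the liver factor HNF1, and CAAAGT, part of the site of HNF4. They also mark TTGCNNCAA, where N is any base, a pattern that resembles the site of C/EBP factors but is not their consensus. None of these marks overlap. In the annotation used for counting, *C6*, *C9* and *Vtn* start at 4727175, 6445327 and 78499091, inside these windows. The CAAAGT match of *Vtn* lies past that start.
C6: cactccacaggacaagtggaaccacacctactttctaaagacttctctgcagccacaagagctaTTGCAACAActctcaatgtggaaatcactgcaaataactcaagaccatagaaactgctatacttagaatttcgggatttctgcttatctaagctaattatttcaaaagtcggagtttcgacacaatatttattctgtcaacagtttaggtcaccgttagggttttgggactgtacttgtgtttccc
C9: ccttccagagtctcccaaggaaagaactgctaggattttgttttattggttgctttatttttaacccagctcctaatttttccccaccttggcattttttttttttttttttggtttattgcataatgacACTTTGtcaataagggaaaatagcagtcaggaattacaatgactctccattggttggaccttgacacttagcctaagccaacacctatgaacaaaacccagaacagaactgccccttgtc
Vtn: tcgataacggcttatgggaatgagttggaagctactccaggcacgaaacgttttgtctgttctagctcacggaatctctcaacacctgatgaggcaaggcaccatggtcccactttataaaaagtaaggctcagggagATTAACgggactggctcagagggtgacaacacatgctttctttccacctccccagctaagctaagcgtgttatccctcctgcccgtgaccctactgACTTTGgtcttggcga
GTTAAT was in *Vtn*, CAAAGT in *C9* and *Vtn*, and TTGCNNCAA in *C6*. Over all 32851 promoters, windows of this length held them in 6.43%, 12.6% and 1.74% of cases. Of the 22 complement genes with a promoter in the table, 6, 3 and 2 held them in any of their promoters. That count is per gene and the shares are per promoter, so they are not on a like scale. These matches are letters in a window and no evidence of binding.

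Among the regulators, *Serping1* (chromosome 2, 84765387 to 84775444) was lower at every later stage than at gd10.5, but did not fall at each step. From the first stage to the last, WT libraries had 575, 778 and 564 CPM, then 331, 292 and 288, then 191, 214 and 349, and then 226, 173 and 180. KO libraries had 580, 391 and 721 CPM, then 357, 340 and 214, then 140, 119 and 112, and then 180, 197 and 204. The gd10.5 libraries were above all others in both genotypes, and the 3 KO libraries of gd16.5 were the lowest of all 24. From gd16.5 to gd19.5 the KO libraries rose without overlap, while the WT libraries overlapped. The WT step from gd10.5 to gd14.5 was -1.07 ± 0.20 on the log2 scale (edgeR adjusted p = 5.88e-04), and -0.91 without WT gd10.5 replicate 2. The KO step from gd14.5 to gd16.5 was -1.30 ± 0.23 (edgeR adjusted p = 0.00388), a call that held with each KO library left out in turn.

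*Clu*, clusterin, which binds the nascent pore and also acts as a chaperone, rose from gd14.5 to gd16.5 in both genotypes. WT had 8.37, 13.0 and 12.1 CPM and then 51.8, 34.1 and 21.5 CPM (log2 fold change 1.70 ± 0.30, edgeR adjusted p = 0.00154), and KO had 16.97, 14.02 and 22.7 CPM and then 54.3, 93.9 and 23.5 CPM (1.69 ± 0.40, adjusted p = 0.0162). All gd16.5 libraries were above all gd14.5 libraries of their genotype. The highest were the 3 with high yolk sac markers, and without these libraries the WT call held at 1.33 while in KO *Clu* was no longer called. The KO call was also lost without KO gd14.5 replicate 1 or 2 or KO gd16.5 replicate 2 (adjusted p between 0.0647 and 0.0786).

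The surface regulators differed in how far they moved. *Cr1l*, the mouse protein Crry that protects trophoblast from maternal C3, had 60.1 to 68.3 CPM at gd10.5 and 80.2 to 88.4 CPM at gd16.5 and gd19.5, in both genotypes. *Cd59a* lay between 25.3 and 56.7 CPM. *Cd55* had 120, 134 and 136 CPM in WT at gd14.5 and 232, 262 and 326 CPM at gd19.5, and its step from gd16.5 to gd19.5 was 0.77 in WT (edgeR adjusted p = 0.0233) and 0.88 in KO (0.085), inside the fold limit. *Cd46*, which in mice is known mainly from the testis, had 1.02 to 3.21 CPM.

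**Figure D4:**
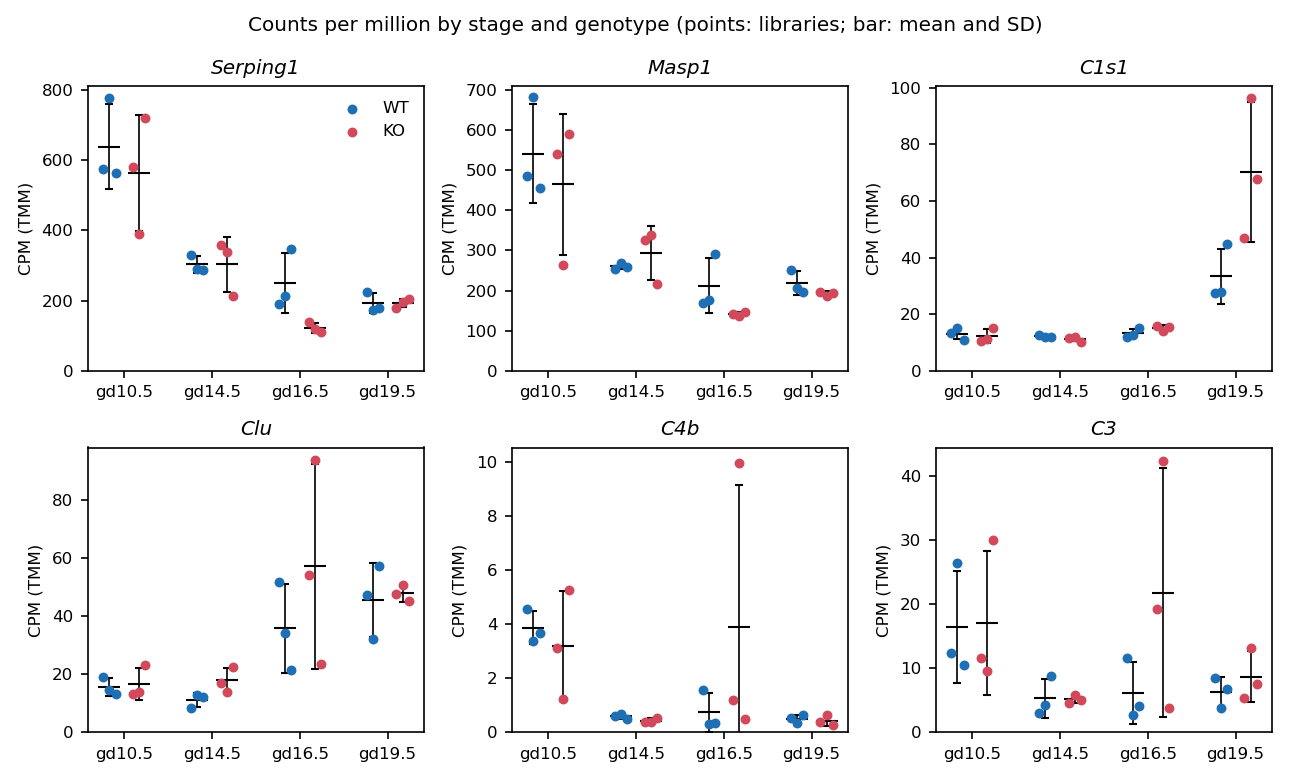
CPM of 6 complement genes by stage, with WT in blue and KO in red. Points are libraries, and the black bars give the mean and SD of 3 libraries, with the lower end beyond 0 not drawn. *Serping1* and *Masp1* are highest at gd10.5, *C1s1* is above 27 CPM only at gd19.5, and *C4b* and *C3* of KO at gd16.5 are spread by 1 high library.

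Counted over the pathway, more members were called between stages than between genotypes, and the same was true of all genes. Stage fits used 12 libraries and genotype fits 6, so their counts are not at like power. A member was called when its adjusted p was under 0.05 and its log2 fold change beyond 1. From gd10.5 to gd14.5, 0 of 25 members tested were called higher in WT and 7 lower, against 10.7% and 11.6% of all genes tested, and 0 and 3 of 25 in KO against 8.53% and 10.2%. Without WT gd10.5 replicate 2 the WT count was 3. The members lower in WT were *C1qa*, *C3*, *C4b*, *C7*, *Cfb*, *Masp1* and *Serping1*, and those lower in KO were *C4b*, *Cfb* and *Cfi*. *C4b* and *Cfb* were called in both. *C7* passed the filter through the group where it is high and adds nothing to the WT count as a test. The same holds for *Cfb* in both genotypes, which did not pass on the gd14.5 libraries alone. The KO count was 9 without KO gd10.5 replicate 2, 5 without KO gd16.5 replicate 2 and 6 without KO gd16.5 replicate 3, all of which enter the shared estimate of spread. The median log2 fold change was -0.70 in WT and -0.67 in KO, beside -0.01 and -0.00 for all genes.

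From gd14.5 to gd16.5, 1 of 25 members was higher in WT (*Clu*) and 0 lower, against 3.04% and 2.55% of genes, and the higher count was 2 without WT gd10.5 replicate 1. In KO, 10 of 25 were higher (*C1qa*, *C1qb*, *C1qc*, *C4b*, *C8g*, *C9*, *Cfb*, *Cfi*, *Clu* and *Vtn*) and 2 lower (*Masp1* and *Serping1*), against 4.78% and 2.76%. *Cfb* and *C9* did not pass the filter on the gd14.5 libraries alone. They entered through stages where they are higher, so their calls are no independent test. Without the libraries high in yolk sac markers, KO gd16.5 is 1 library that is assumed to vary like the other groups, and that fit called the 3 C1q genes higher and *Serping1* lower. Leaving out KO gd14.5 replicate 1 or 2 or KO gd16.5 replicate 2 gave 4, 2 and 3 higher members. Calls of *C4b*, *C9* and *Vtn* were each lost in at least 5 of the 12 fits that left out 1 KO library, those of *C1qb* and *Cfi* in 0. *Masp1* was lost, which left 1 lower member, without KO replicate 1 or 2 of either stage.

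From gd16.5 to gd19.5, *C1s1* was the 1 member called higher in each genotype, against 1.2% of genes in WT and 0.255% in KO, and 0 members were called lower, against 0.939% and 0.439%. The KO count of lower members was 4 without KO gd10.5 replicate 2 or KO gd16.5 replicate 3 and 1 without KO gd10.5 replicate 3. The *C1s1* call in KO was lost without KO gd16.5 replicate 2 or KO gd19.5 replicate 3.

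Genotype was compared at each stage to ask whether loss of *C1qtnf6* went with other levels of complement transcripts. No member was called by edgeR at any stage. From the first stage to the last the counts were 0 of 26, 0 of 23, 0 of 26 and 0 of 22 members tested, against 0.00572%, 0.0166%, 0.00586% and 0.023% of all genes. At an unadjusted p under 0.05 there were 0, 2, 4 and 5 members, against 0.801%, 6.78%, 11.1% and 13.5% of all genes. With DESeq2 on all 24 libraries the counts were 0, 0, 1 and 1, against 0.00506%, 0.00253%, 0.253% and 0.0486% of genes. The members not tested were at or near the floor, *C1rb*, *C1s2*, *Masp2* and *Cfd* at every stage.

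Groups that did not overlap were also few at gd10.5. There, 0 of 26 members had all KO libraries above all WT libraries (1.83% of genes) and 1 below (2.35%). At gd14.5 there were 2 of 23 above (6.41%) and 3 below (6.1%), at gd16.5 1 of 26 above (8.11%) and 2 below (9.62%), and at gd19.5 2 of 22 above (12.8%) and 3 below (8.58%). The shares of members stood on both sides of those of all genes. By role at gd16.5 the median log2 fold change was 0.69 for initiators, 0.90 for effectors and 0.09 for regulators, with yolk sac markers high in 2 KO libraries and 1 WT library. With those markers as a covariate the medians were 0.31, 0.16 and -0.04. At gd16.5 the libraries high in these markers were also those with Y-linked transcripts above 30 CPM, so this fit cannot tell the markers from fetal sex. Over all members it was -0.11, -0.09, 0.63 and -0.01 from gd10.5 to gd19.5, beside 0.01, -0.00, 0.01 and -0.01 for all genes.

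**Figure D5:**
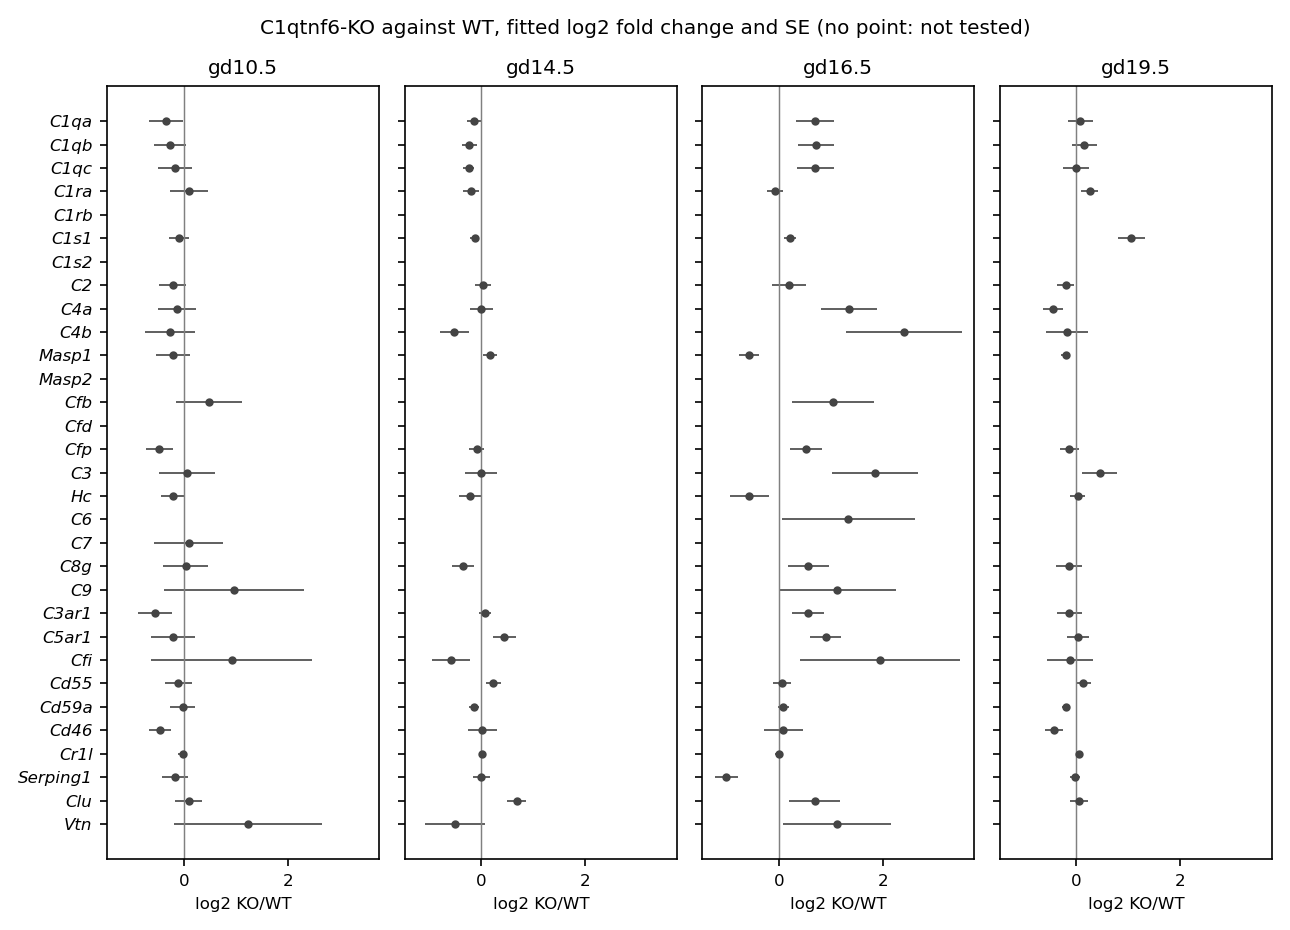
Fitted log2 fold change of KO over WT with its SE for each complement gene tested, with 1 panel per stage. Values at gd14.5 lie between -0.58 and 0.68 and *C1s1* (1.05) leads at gd19.5, while those of gd16.5 spread from -1.01 for *Serping1* to 2.40 for *C4b*.

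*Serping1* gave the smallest p at gd16.5. The KO libraries had 140, 119 and 112 CPM and the WT libraries 191, 214 and 349 CPM, with no overlap. The log2 fold change was -1.01 ± 0.22, with an edgeR adjusted p of 0.356, between 2.01e-04 and 0.796 over 15 alternatives. DESeq2 called it on the same 6 libraries (adjusted p = 3.46e-04) and on all 24 (0.00609). The paper, which used DESeq2, also lists *Serping1* among the genes lower in KO at gd16.5. The edgeR fit without its filter also called *Serping1* (adjusted p = 0.00375), but the SEs of that fit can be far smaller, so it adds little. Without the libraries high in yolk sac markers the value was -1.32. That fit leaves 1 KO library, assumed to vary like the WT pair, and gave the low end of the range. Leaving out WT gd16.5 replicate 3 brought the value to -0.71. At the other stages its log2 fold change was -0.17, -0.00 and -0.02. *Masp1*, a target of the C1 inhibitor, had 141, 137 and 147 CPM in KO and 169, 178 and 290 CPM in WT at gd16.5, also without overlap (-0.57 ± 0.20, edgeR adjusted p = 0.428). In WT both genes were highest at gd10.5, where markers of decidual stroma were highest too. In KO those markers overlapped between gd10.5 (2088 to 10906 CPM) and gd14.5 (2329 to 2854 CPM). At gd16.5 those markers overlapped, at 1566 to 2179 CPM in KO and 1640 to 2462 CPM in WT, while trophoblast markers were at 64791 to 71929 CPM in KO and 41047 to 55312 CPM in WT. Markers of fibroblasts (2565 to 3222 CPM in KO, 3537 to 3884 CPM in WT), smooth muscle (384.5 to 464 and 503 to 694), uterine epithelium (124 to 161 and 166 to 231) and NK cells (11.2 to 18.2 and 33.8 to 53.7) were lower in every KO library, as *Serping1* was. Over gestation the fibroblast sum rose, from 1504 to 2077 CPM at gd10.5 to 4030 to 5047 CPM at gd19.5, while *Serping1* was lower at gd19.5 than at gd10.5. The part of the named cell types in the gd16.5 difference was not tested.

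*C5ar1*, the receptor for C5a on myeloid cells, had 27, 69 and 36 counts in KO and 26, 25 and 12 in WT at gd16.5, or 1.34, 2.13 and 1.64 CPM against 1.07, 1.11 and 0.584 CPM. The groups did not overlap (log2 fold change 0.90 ± 0.30, edgeR adjusted p = 0.421). At gd14.5 it was also above WT in all 3 libraries, at 0.850, 1.06 and 1.03 CPM against 0.658, 0.719 and 0.800 CPM (0.44 ± 0.22, adjusted p = 0.75).

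At gd16.5 the largest differences were in *C4b*, *Cfi* and *C3*, and none passed. *C3* had 19.2, 42.3 and 3.79 CPM in KO and 11.6, 2.65 and 4.09 CPM in WT, with overlap (log2 fold change 1.85 ± 0.83, edgeR adjusted p = 0.453). In both groups the low values were those of the libraries with low yolk sac markers. With the marker sum as a covariate the value was 0.68, and without the 3 libraries high in markers 0.19. The same covariate brought *Cfi* from 1.95 to 0.03, *Clu* from 0.69 to 0.04 and *C4b* from 2.40 to 0.98. These settings were chosen after the data were seen, and at gd16.5 they cannot tell the markers from Y-linked transcripts, which were high in the same libraries.

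*C1s1* gave the smallest p at gd19.5. Its KO libraries, at 47.0, 96.3 and 67.8 CPM, were above the WT libraries, at 27.6, 27.8 and 44.7 CPM, but the highest WT and the lowest KO value were close. The log2 fold change was 1.05 ± 0.26 with an edgeR adjusted p of 0.171, between 4.44e-31 and 0.394 over 14 alternatives. DESeq2 called it on all 24 libraries (adjusted p = 0.00305) and not on the 6 libraries of the stage (0.182). The edgeR fit without its filter gave 4.44e-31. Its SEs can be far smaller, as shown for *Cfi* in the last section, so it adds little. Without KO gd19.5 replicate 2 the value was 0.76. *Cd59a* had 45.4, 46.5 and 47.9 CPM in KO and 49.8, 50.5 and 56.7 CPM in WT (-0.19 ± 0.07, edgeR adjusted p = 0.313). *Cd46* had 2.19, 2.28 and 1.81 CPM in KO and 2.51, 2.58 and 3.21 CPM in WT (-0.43 ± 0.18, adjusted p = 0.341). Both were below WT without overlap, by less than the fold limit.

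At gd14.5, *Clu* had 16.97, 14.02 and 22.7 CPM in KO and 8.37, 13.0 and 12.1 CPM in WT, without overlap (log2 fold change 0.68 ± 0.19, edgeR adjusted p = 0.648). *C1qc* had 5.16, 4.95 and 4.94 CPM in KO and 5.79, 6.08 and 5.89 CPM in WT, a small and even difference (-0.24 ± 0.10, adjusted p = 0.728). At gd10.5, *Cd46* had 2.24, 1.60 and 2.08 CPM in KO and 2.86, 2.46 and 2.83 CPM in WT (-0.46 ± 0.22), *Cfp* 2.503, 2.51 and 3.81 against 4.41, 4.70 and 3.13 CPM (-0.47 ± 0.26), and *C3ar1* 3.10, 5.68 and 5.64 against 8.57, 7.83 and 4.78 CPM (-0.55 ± 0.32). All 3 had an edgeR adjusted p of 1.00, and the groups of *Cfp* and *C3ar1* overlapped. *Cd46* was thus below WT without overlap at gd10.5 and gd19.5, but at gd14.5 and gd16.5 the groups overlapped, with log2 fold changes of 0.02 and 0.09.

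Across all stages, with stage as a term, 0 of 27 members tested passed an adjusted p of 0.05 (0.0155% of genes) and 1 had an unadjusted p under 0.05 (6.34% of genes), *Serping1* (log2 fold change -0.30, edgeR adjusted p = 0.769). The genotype-by-stage interaction gave 0 of 27 members (0% of genes), and 3 at an unadjusted p under 0.05 (7.23% of genes), *C1s1*, *C4a* and *Serping1*. *Cfp* and *Cfb*, both of the alternative pathway, had no called difference, with *Cfp* at KO over WT log2 fold changes of -0.47, -0.09, 0.52 and -0.14 from the first stage to the last.

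Of 35 other complement genes, 17 to 19 were tested at each stage and 0 were called between genotypes. *Itgb2*, the beta chain of complement receptor 3, fell from 32.8 ± 9.54 CPM (SD, n = 3) to 7.30 ± 0.765 CPM in WT between gd10.5 and gd14.5 (edgeR log2 fold change -2.17, adjusted p = 3.87e-06). *Colec12*, a collectin of the cell surface, rose from 66.0 ± 8.66 to 209 ± 11.2 CPM (1.67, adjusted p = 5.49e-08). Of 19 tested at that step, 3 were called higher in WT and 1 in KO, against 10.7% and 8.53% of all genes tested. From gd14.5 to gd16.5, 1 was higher in WT and 3 in KO, against 3.04% and 4.78%, with *C5ar2*, the second C5a receptor, in both. From gd16.5 to gd19.5 *Susd4* was the 1 called higher in WT, against 1.2%. Genes called lower at these steps are not counted here. The members and these genes were set against all genes only as counts.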

How the data were processed

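RNA-seq of the MFI was deposited by the authors as raw counts per gene, without normalization, for 24 libraries and 55401 genes, beside an exon length per gene. Per the submitters' notes, reads were trimmed with Trim Galore 0.6.4, aligned to GRCm38 with STAR 2.7.3a and counted with featureCounts of Subread 2.0.0. By the paper, libraries were stranded and the settings were the defaults, which ignore strand and leave out reads with several positions. KO libraries are numbered 3, 4 and 5 in titles and 1, 2 and 3 in descriptions, which were used.

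KO was compared with WT among the 6 libraries of a stage, and stages among the 12 libraries of a genotype, by quasi-likelihood in edgeR 4.0.16 (R 4.3.3), after its filter (minimum count 10, minimum total 15) and TMM normalization. Adjusted p-values are Benjamini-Hochberg over all genes tested. Calls needed an adjusted p under 0.05 and, except across stages and in the interaction, an absolute log2 fold change over 1. RPKM used the deposited length. Alternatives were DESeq2 1.42.0 on the same and on all 24 libraries, its size factors, no filter, no fold limit, edgeR on all 24 libraries, a block for replicate numbers, a covariate for Y-linked transcripts and each library left out. The fits that use yolk sac markers were chosen after seeing the data. The steps were tested on simulated data. The members and lists were chosen with earlier results of these data known.

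Every member is accounted for. Library values are given for members called between genotypes, the 3 with the smallest p per stage and up to 3 per role with the largest stage change called in both genotypes. *C3*, *C7*, *C9*, *C6*, *Vtn*, *Cfi*, *C1qa*, *C1qb* and *C8g*, and the other genes named, were added after their values were seen. Transcripts were compared with BLAST 2.17.0 in GENCODE M21, and promoters come from RefSeq on GRCm38.p6. Replicate pairs of a group all differed by more than sampling noise (chi-square over its degrees of freedom 7.86 to 169). A result among the other complement genes is not reported here.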

Additional observations from a re-analysis of the deposited data

Results flagged for a closer look

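*C1s1* had opposite differences at 2 stages. At gd19.5 every KO library was above every WT library (log2 fold change 1.05), and at gd14.5 every KO library was below every WT library (-0.12). The genotype-by-stage interaction of edgeR gave an unadjusted p of 0.00187 and an adjusted p of 0.509, so the difference between stages did not pass. The shift at gd14.5 was within 10.3 to 12.8 CPM in all 6 libraries.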

How the results depend on the processing

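Counts of called members moved with several settings. From gd10.5 to gd14.5 in WT, *Cfi* was at -3.28 and not called. It was called lower with no expression filter (-3.25) and higher without the libraries high in yolk sac markers (1.98). Its SE was 1.65 with the filter and 0.475 without it, so calls made without the filter carry less weight. Between genotypes, the count of 0 became 1 at gd16.5 and 1 at gd19.5 with no expression filter and with DESeq2 on all 24 libraries, 1 at gd16.5 with DESeq2 on the same libraries, and 3 at gd16.5 without the libraries high in yolk sac markers. With no fold limit, WT had 1 higher and 12 lower from gd10.5 to gd14.5, 2 higher at the next step and 2 higher at the last, and KO had 1 higher and 7 lower from gd10.5 to gd14.5. With no filter, WT had 5 higher from gd14.5 to gd16.5 and 4 lower at the last step, and KO had 5 lower from gd10.5 to gd14.5 and 5 lower at the last step, where DESeq2 on the same libraries also gave 5 and edgeR on all 24 libraries 2. The latter gave 5 lower in KO from gd10.5 to gd14.5. Without the libraries high in yolk sac markers, WT had 2 higher from gd10.5 to gd14.5, and KO had 3 higher and 1 lower from gd14.5 to gd16.5 and 3 higher at the last step. Leaving out 1 library in turn gave 3 to 9 lower in WT and 2 to 9 lower in KO from gd10.5 to gd14.5, 1 to 2 higher in WT and 2 to 14 higher and 1 to 2 lower in KO from gd14.5 to gd16.5, and 0 to 1 higher and 0 to 4 lower in KO at the last step. The cause was not tested. With the replicate number as a block, 8 members were higher in KO from gd14.5 to gd16.5 instead of 10, and the counts of the other comparisons did not move. The labels do not say whether the numbers pair the samples. Same-numbered WT and KO libraries deviated together in 6 of 12 pairs (correlation over 0.1, range -0.57 to 0.479), which cannot decide it. Members with few counts, such as *C6*, *C7* and *C9*, limit what these depths can show.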
